A study of Mus musculus with 20 samples.

Results

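The genes that sense oxygen and carry the hypoxia response, 10 in all, were followed across 20 RNA-Seq libraries of whole mouse retina. They were taken by gene symbol from the deposited tables and comprise the alpha subunits of the hypoxia-inducible factors (*Hif1a*, NCBI gene 15251; *Epas1*, 13819; *Hif3a*, 53417), their beta subunits (*Arnt*, 11863; *Arnt2*, 11864), the prolyl hydroxylases (*Egln1*, 112405; *Egln2*, 112406; *Egln3*, 112407), the substrate receptor of the ligase that degrades the alpha subunits (*Vhl*, 22346) and the asparaginyl hydroxylase known as FIH (*Hif1an*, 319594). All 10 were found among the 18754 genes listed in both experiments, and all 10 passed the filter on low values in both.

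Oxygen-induced retinopathy (OIR) is a mouse model in which high oxygen closes growing retinal vessels and the return to room air leaves the retina short of oxygen and drives new vessels. Pups of both sexes, *Atf6*+/+ or *Atf6*-/-, were kept in 75% oxygen from P7 to P12, returned to room air, and their retinas were taken at P17 (5 libraries per genotype, C57BL/6J). *Atf6* encodes a sensor of endoplasmic reticulum stress, and the *Atf6*-/- mice carry a premature stop codon in every cell, so that loss in one retinal cell type cannot be told apart from loss in another. In the second experiment, wild-type mice at P30, with no high-oxygen step described, received 1 µL into the vitreous of both eyes the day before collection, either saline with DMSO (labelled PBS; 5 libraries) or 10 µM Ceapin-A7, a small-molecule inhibitor of ATF6, also in saline with DMSO (5 libraries). The labels give both groups the same DMSO range, whereas the study's methods state a lower DMSO share for Ceapin-A7 than for its control, so a difference in DMSO cannot be told apart from the inhibitor. Replicates are libraries of whole retinas without cornea and lens. No label ties each library to a mouse of its own, so p-values measure the spread between these samples.

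Under normal oxygen, prolyl hydroxylases modify the alpha subunits, VHL binds the modified protein, and the proteasome destroys it. When oxygen is low, hydroxylation slows, the alpha subunits persist, pair with ARNT or ARNT2, and switch on genes for glycolysis and vessel growth. HIF-1α and HIF-2α (the product of *Epas1*) are thus set mainly at the protein level, which RNA-Seq does not measure, whereas *Egln1* and *Egln3* are themselves transcribed in response to HIF and act as a feedback. In the retina, HIF-1α is best known from neurons and Müller glia and HIF-2α from endothelium and glia. A whole-retina library mixes these cells, and fewer cells of a type cannot be told apart from less RNA per cell.

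Values are FPKM, that is fragments divided by transcript length and by the number of mapped fragments of the library, so levels of different genes can be set beside each other. The deposited FPKM summed to 415014 to 456250 per OIR library and to 410599 to 431118 per P30 library, which is not a depth. All 15 retina markers examined were present in both experiments, while lens fibre transcripts varied from 6.25 to 1010 FPKM in sum among OIR libraries (highest in *Atf6*+/+ replicates 5 and 2) and from 14.17 to 10980 among P30 libraries. *Atf6* itself was at 14.61 to 16.05 FPKM in *Atf6*+/+ OIR and 13.57 to 16.83 FPKM in *Atf6*-/- OIR, and since a gene-level FPKM does not see a stop codon, it does not check the genotype.

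HIF dimers recognise a short core that reads ACGTG or GCGTG on either DNA strand, and the promoters of the 4 members with the smallest unadjusted p between the OIR genotypes are shown with it in capitals. Each stretch is the 250 bases before the RefSeq start (GRCm38.p6, a different build from the one the reads were aligned to), written 5′ to 3′ on the gene's strand. A match on the opposite strand appears as CACGT or CACGC.
Hif1a promoter (chr12:73907617-73907866, + strand): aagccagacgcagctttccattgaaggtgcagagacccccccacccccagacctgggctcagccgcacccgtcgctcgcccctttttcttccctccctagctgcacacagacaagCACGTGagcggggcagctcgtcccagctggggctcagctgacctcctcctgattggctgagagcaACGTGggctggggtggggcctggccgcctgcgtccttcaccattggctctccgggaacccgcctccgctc
Hif3a promoter (chr7:17062428-17062677, - strand): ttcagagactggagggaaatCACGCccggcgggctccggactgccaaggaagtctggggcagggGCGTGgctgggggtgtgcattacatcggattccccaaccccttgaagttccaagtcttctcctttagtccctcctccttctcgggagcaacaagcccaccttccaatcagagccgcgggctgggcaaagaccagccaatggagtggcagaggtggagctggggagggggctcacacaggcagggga
Egln1 promoter (chr8:124949255-124949504, - strand): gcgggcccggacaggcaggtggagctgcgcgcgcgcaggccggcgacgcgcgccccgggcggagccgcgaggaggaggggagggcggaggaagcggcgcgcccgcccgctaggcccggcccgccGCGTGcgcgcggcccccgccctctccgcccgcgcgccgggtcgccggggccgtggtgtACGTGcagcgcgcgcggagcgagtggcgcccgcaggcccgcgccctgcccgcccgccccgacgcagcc
Egln3 promoter (chr12:54203875-54204124, - strand): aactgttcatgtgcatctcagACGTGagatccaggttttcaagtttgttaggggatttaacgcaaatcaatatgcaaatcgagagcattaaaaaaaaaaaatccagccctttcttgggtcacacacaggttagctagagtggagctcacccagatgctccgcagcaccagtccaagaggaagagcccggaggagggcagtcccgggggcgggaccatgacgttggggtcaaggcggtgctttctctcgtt
The *Hif1a* promoter held ACGTG 3 times, of which the pair at -135 and -134 overlap as the palindrome CACGTG on opposite strands, and the third lay at -70 (position -1 is the base before the start). *Egln1* held GCGTG at -126 and ACGTG at -68 in a promoter of 86.0% GC, while *Egln3* had a single ACGTG at -229 and *Hif3a* had GCGTG at -230 on the opposite strand and at -186. Of the 9 members with a RefSeq promoter, 6 held either core (*Arnt* and *Egln2* besides those printed), and of all 32817 RefSeq mouse promoters of the same 300 bases 43.8% did. *Arnt2*, *Vhl* and *Hif1an* held neither in this window, and *Epas1* had no entry. The *Hif1a* start used here is not the first base of its RefSeq gene.

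*Hif1a* was the most abundant member in every group, *Egln1* ranked 2 and *Hif3a* ranked 10. In *Atf6*+/+ OIR, *Hif1a* averaged 153.3 ± 7.07 FPKM (SD, n = 5), 3.28 times *Egln1*, and no library overlapped between them. *Egln1*, *Epas1* and *Egln2* followed at 46.75 ± 9.39, 34.85 ± 7.3 and 24.65 ± 1.18 FPKM (SD, n = 5), with neighbours in this order overlapping. Next came *Arnt* at 20.82 ± 0.892, *Hif1an* at 17.94 ± 0.623, *Vhl* at 12.59 ± 1.42 and *Egln3* at 10.89 ± 5.9 FPKM. The wide range of *Egln3* (6.15 to 20.85 FPKM) overlapped *Vhl*, *Hif1an* and *Arnt* above it. *Arnt2* at 5.782 ± 0.683 FPKM overlapped *Egln3* above it, and *Hif3a* stood alone at 1.628 ± 0.346 FPKM.

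*Epas1* and *Egln3* stood lower in the order at P30. In saline-treated retinas, *Epas1* ranked 7 rather than 3 at 15.92 ± 3.39 FPKM (SD, n = 5), overlapping *Vhl* at 16.07 ± 1.19 FPKM and *Arnt* at 21.29 ± 2.41 FPKM. *Hif1an* ranked 4 at 24.41 ± 1.4 FPKM, and *Egln3* ranked 9 at 1.89 ± 0.435 FPKM, overlapping *Hif3a* at 1.174 ± 0.377 FPKM. The ranks were the same 1 to 10 in Ceapin-A7-treated retinas.

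**Figure D1:**
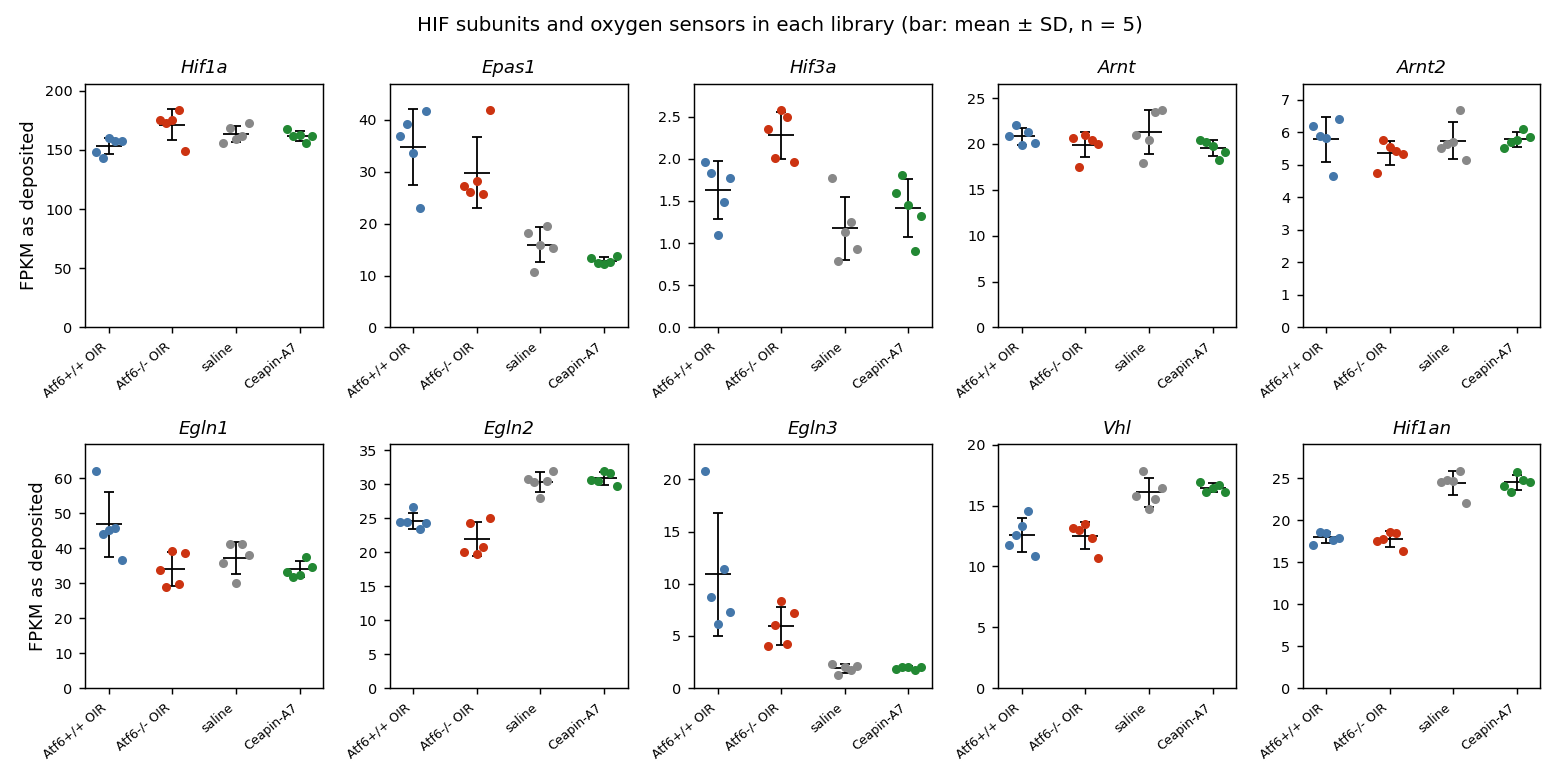
FPKM of the 10 members in each of the 20 libraries (y axes start at 0 and differ between panels), with points for libraries and bars for the mean ± SD of 5. *Egln3* ranged from 4.07 to 20.85 FPKM in the OIR groups and from 1.23 to 2.36 FPKM at P30, while *Hif1a* lay between 143.46 and 183.83 FPKM in all libraries.

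Setting *Atf6*+/+ OIR retinas at P17 beside saline-treated retinas at P30 gave the largest ratio among the members for *Egln3*, the prolyl hydroxylase PHD3. Its mean at P17 OIR was 5.76 times the P30 mean, with 6.15 to 20.85 FPKM against 1.23 to 2.36 FPKM. For *Epas1* the ratio was 2.19 (22.93 to 41.72 against 10.74 to 19.62 FPKM). These are the members whose P17 libraries all lay above the P30 libraries. Those with all P17 libraries below the P30 libraries were *Hif1an* (ratio 0.735), *Vhl* (0.783) and *Egln2* (0.813). *Hif1a* (0.938), *Arnt* (0.978), *Arnt2* (1.01), *Egln1* (1.25) and *Hif3a* (1.39) overlapped. The median over 15180 genes was a ratio of 1.01. HIF target genes, a list of 55 well-known targets in glycolysis, vessel growth and oxygen transport, had a median log2 ratio of 0.48 over the 54 measured in both, with 41 above the median of all genes. *Vegfa*, the main vessel growth factor, averaged 222.9 FPKM at P17 OIR and 71.95 FPKM at P30, and *Adm*, which encodes adrenomedullin and is named here after its values were seen, averaged 16.16 and 0.456 FPKM. No test was made, because age, oxygen exposure and injection differ together, and the tables were normalized separately.

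The first comparison asked what loss of ATF6 does to the retina under OIR. No member had an adjusted p under 0.05 (limma with Benjamini-Hochberg adjustment over 15704 genes; 5 genes, 0.0318%, were called). With an unadjusted threshold of 0.05, 4 of 10 members were counted, *Hif1a* and *Hif3a* with higher means in *Atf6*-/- OIR and *Egln1* and *Egln3* with lower means, while 12.7% of all genes tested were at that threshold (6.94% higher and 5.81% lower). limma with array weights, which give libraries far from their group less weight, called 2769 of the 15704 genes and 4 members (*Hif1a*, *Epas1*, *Hif3a* and *Egln2*, adjusted p 0.0300 to 0.0410). *Egln1* (adjusted p 0.0573) and *Egln3* (adjusted p 0.172) were not called with these weights. The background at the unadjusted p moved with the libraries, from 1092 genes without *Atf6*-/- replicate 4 to 3762 without *Atf6*+/+ replicate 4 and 4011 without *Atf6*-/- replicate 5, and was 1301 without *Atf6*+/+ replicate 1. Without the lens-rich *Atf6*+/+ replicates 2 and 5, a choice made after seeing the data, *Hif1a*, *Hif3a*, *Egln1* and *Egln3* had unadjusted p-values of 0.0047 to 0.0314 by limma. None of the 10 members had groups that did not overlap on rescaled FPKM, which 1.80% of genes had. Rescaled FPKM are FPKM divided by a size factor per library, and log2 fold changes below are limma estimates on log2(rescaled FPKM + 0.1).

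Among the alpha subunits, *Hif1a*, the oxygen-regulated partner in HIF-1, was at 148.21, 143.46, 160.02, 157.05 and 157.57 FPKM in *Atf6*+/+ OIR and at 175.56, 172.88, 174.84, 183.83 and 149.15 FPKM in *Atf6*-/- OIR. Of the 5 *Atf6*-/- libraries, 4 lay above every *Atf6*+/+ library, and replicate 5 lay within the *Atf6*+/+ range. The log2 fold change was 0.18 (SE 0.06, 95% interval 0.05 to 0.30), with an unadjusted p of 0.0093 and an adjusted p of 0.358 by limma. *Hif1a* transcripts are AT-rich (41.34% GC), and across all genes the fold changes in this comparison went down with GC content (Spearman rho -0.48 across genes, which are not independent replicates). With a correction for GC content, the *Hif1a* log2 fold change was 0.07 (limma, unadjusted p 0.198).

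*Hif3a* encodes an alpha subunit with shorter forms that oppose HIF activity. It was at 1.96, 1.83, 1.09, 1.49 and 1.77 FPKM in *Atf6*+/+ OIR and at 2.35, 2.01, 2.58, 2.49 and 1.96 FPKM in *Atf6*-/- OIR. The groups met at 1.96 FPKM. For *Hif3a* the log2 fold change was 0.50 (SE 0.16, 95% interval 0.16 to 0.83), with an unadjusted p of 0.00783 and an adjusted p of 0.358 by limma. After the GC correction it was 0.53 (unadjusted p 0.00537).

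*Epas1*, the alpha subunit of HIF-2, was at 36.81, 39.17, 33.63, 22.93 and 41.72 FPKM in *Atf6*+/+ OIR and at 27.25, 26.05, 28.15, 25.78 and 41.96 FPKM in *Atf6*-/- OIR. Each group held a library far from the other 4, replicate 4 of *Atf6*+/+ below every *Atf6*-/- library and replicate 5 of *Atf6*-/- above every *Atf6*+/+ library. With both, the log2 fold change was -0.20 (95% interval -0.61 to 0.20, limma adjusted p 0.604). Of the 10 runs that left out 1 library, 2 were at the unadjusted threshold, and the highest limma p was 0.541. Without *Atf6*+/+ replicate 4 the log2 fold change was -0.36 (unadjusted p 0.0342), and without *Atf6*-/- replicate 5 it was -0.35 (unadjusted p 0.0445). Without the lens-rich *Atf6*+/+ replicates 2 and 5 it was -0.03 (unadjusted p 0.895). The libraries that stood apart for *Epas1* were also at the ends of the range of 18 endothelial markers, whose sum was lowest among *Atf6*+/+ libraries in replicate 4 (166.7 FPKM, others 191.2 to 255.9) and highest among *Atf6*-/- libraries in replicate 5 (225.2 FPKM, others 147 to 204.9). The rest of the *Atf6*+/+ group did not follow this order, since replicate 5, the highest for *Epas1*, had an endothelial sum of 191.2 FPKM and replicate 3, at 33.63 FPKM of *Epas1*, had the highest sum. Other marker sums also put these 2 libraries at an end of their group. *Atf6*+/+ replicate 4 was lowest for Müller glia (2239 FPKM) and highest for microglia and macrophage (167.5 FPKM) and retinal pigment epithelium markers (291.4 FPKM). *Atf6*-/- replicate 5 was highest for mural (111 FPKM) and lowest for microglia and macrophage markers (93.23 FPKM). The part of any cell type in *Epas1* was not tested.

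The beta subunits are not themselves destroyed in the presence of oxygen, and their groups overlapped widely. *Arnt* was at 19.85 to 22.04 FPKM in *Atf6*+/+ OIR and at 17.54 to 21.02 FPKM in *Atf6*-/- OIR, with a log2 fold change of -0.05 (95% interval -0.19 to 0.10). *Arnt2*, the neuronal paralog, was at 4.64 to 6.41 and 4.75 to 5.75 FPKM, with a log2 fold change of -0.09 (95% interval -0.31 to 0.14). Unadjusted p-values by limma were 0.499 and 0.418. Without *Atf6*+/+ replicate 4, *Arnt2* was at -0.17 (limma unadjusted p 0.0437), with 3762 of all genes at the threshold. In the other runs that left out 1 library, its unadjusted p was above 0.05 and up to 0.719.

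Of the prolyl hydroxylases, *Egln1* (PHD2), the main oxygen sensor for HIF-1α, was at 62.15, 44.05, 45.25, 45.80 and 36.49 FPKM in *Atf6*+/+ OIR and at 33.61, 28.86, 39.17, 29.74 and 38.48 FPKM in *Atf6*-/- OIR. *Atf6*+/+ replicate 5 lay within the *Atf6*-/- range and the other 4 *Atf6*+/+ libraries lay above it. The means were 46.75 ± 9.39 and 33.97 ± 4.78 FPKM (SD, n = 5). This is -0.43 on the log2 scale (SE 0.14, 95% interval -0.73 to -0.13), with an unadjusted p of 0.00897 and an adjusted p of 0.358 by limma.

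*Egln3* (PHD3), an enzyme whose gene is strongly induced by hypoxia, was at 20.85, 8.75, 6.15, 11.41 and 7.30 FPKM in *Atf6*+/+ OIR and at 4.07, 6.06, 8.31, 4.22 and 7.19 FPKM in *Atf6*-/- OIR. *Atf6*+/+ replicate 1 was the highest of all 20 libraries for both *Egln3* and *Egln1*, and *Atf6*-/- replicate 3 was the highest *Atf6*-/- library for both. The log2 fold change of *Egln3* was -0.75 (SE 0.31, 95% interval -1.42 to -0.09), with an unadjusted p of 0.0296 and an adjusted p of 0.366 by limma. Without *Atf6*+/+ replicate 1 it was -0.48 (unadjusted p 0.0608), and the unadjusted p was also above 0.05 without *Atf6*+/+ replicate 4 (0.0544) and without *Atf6*-/- replicate 1 (0.0742) or 4 (0.0739).

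*Egln2* (PHD1), which is not known to be induced by hypoxia, was at 24.46, 24.44, 26.61, 23.42 and 24.34 FPKM in *Atf6*+/+ OIR and at 20.01, 24.23, 19.71, 20.72 and 24.98 FPKM in *Atf6*-/- OIR. In *Atf6*-/- OIR, 3 libraries lay below every *Atf6*+/+ library and the other two lay within the *Atf6*+/+ range. Its log2 fold change was -0.16 (95% interval -0.34 to 0.03, limma unadjusted p 0.0885). Its transcript is the most GC-rich of the members (62.17% GC), and with the GC correction the value was 0.01 (unadjusted p 0.914), while *Egln1* (56.01% GC) was at -0.34 (unadjusted p 0.022) and *Egln3* (51.35% GC) at -0.73 (unadjusted p 0.0333). Without *Atf6*-/- replicate 5, *Egln2* was at -0.22 (limma unadjusted p 0.00763), with 4011 of all genes at the threshold. In the other runs that left out 1 library, its unadjusted p was above 0.05 and up to 0.213.

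*Vhl* and the asparaginyl hydroxylase gene *Hif1an* had nearly the same means in both genotypes. *Vhl* was at 12.59 ± 1.42 FPKM in *Atf6*+/+ OIR and 12.54 ± 1.1 FPKM in *Atf6*-/- OIR (SD, n = 5), with a 95% interval of the log2 fold change from -0.15 to 0.18. *Hif1an*, whose product blocks the transactivation domain of the alpha subunits when oxygen is present, was at 17.94 ± 0.623 and 17.76 ± 0.907 FPKM (SD, n = 5), with a 95% interval from -0.11 to 0.11.

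**Figure D2:**
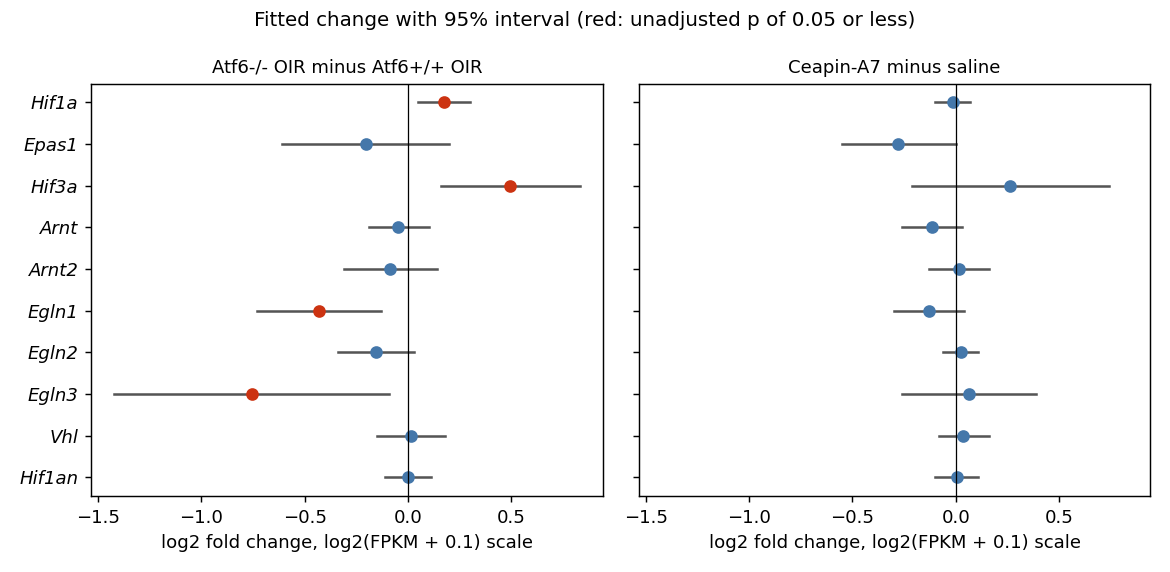
log2 fold change with its 95% interval for each member (limma, log2(FPKM + 0.1) scale), for *Atf6*-/- against *Atf6*+/+ OIR (left) and Ceapin-A7 against saline (right). Red marks an unadjusted p of 0.05 or less, reached on the left by *Hif1a*, *Hif3a*, *Egln1* and *Egln3* and by no member on the right.

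The balance of hydroxylases to their substrates was read as a ratio within each library, which does not depend on the scaling between libraries but does depend on GC content, since *Egln1* and *Egln2* are richer in GC than *Hif1a*. *Egln1*, *Egln2* and *Egln3* summed to 0.581, 0.423, 0.403, 0.448 and 0.342 of *Hif1a* plus *Epas1* in *Atf6*+/+ OIR and to 0.284, 0.297, 0.331, 0.261 and 0.370 in *Atf6*-/- OIR. The groups crossed over at replicate 5 of each, and the other 4 *Atf6*+/+ libraries lay above every *Atf6*-/- library. The difference was -0.50 on the log2 scale (SE 0.15), with p = 0.0159 by a two-sided exact permutation test and 0.127 after Benjamini-Hochberg adjustment over the 8 ratio tests, so it did not pass (0.00794 is the smallest p that 5 and 5 libraries allow). With the log2 values corrected for GC content, an alternative chosen after seeing the data, the difference was -0.31 (exact permutation p = 0.103, adjusted p = 0.339). *Hif1a* to *Epas1* had geometric means of 4.49 and 5.83 (exact permutation p = 0.19), *Egln3* to *Egln1* had 0.214 and 0.17 (exact permutation p = 0.23) and *Arnt* to *Arnt2* had 3.62 and 3.72 (exact permutation p = 0.738), with adjusted p-values of 0.406, 0.406 and 0.762.

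**Figure D3:**
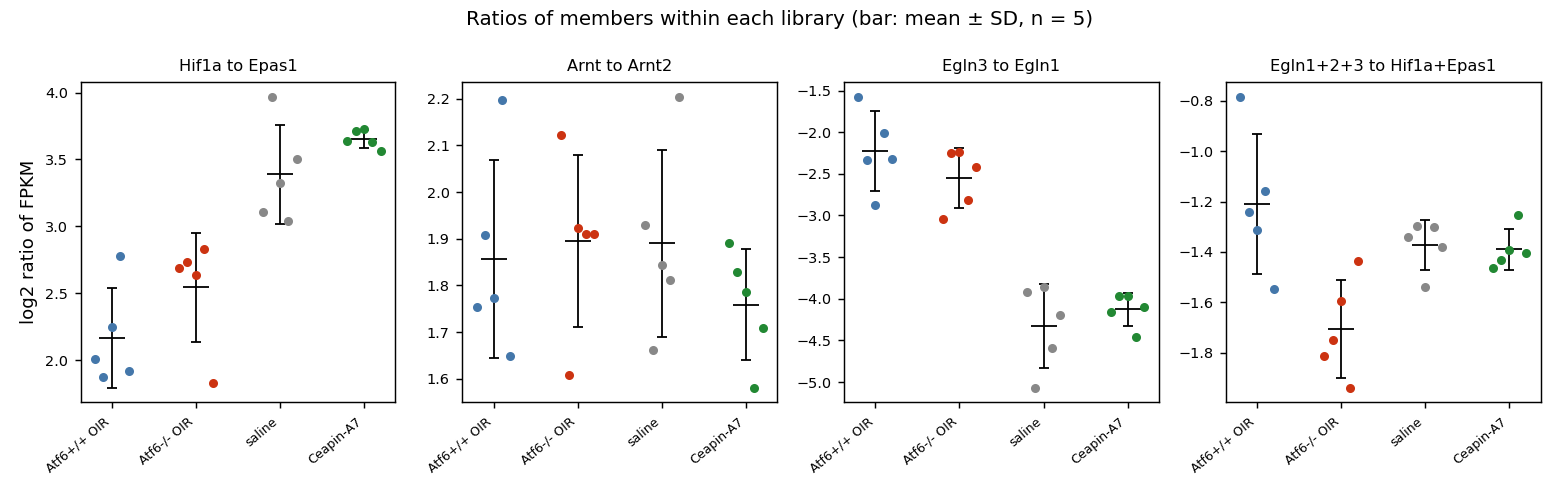
log2 ratios of members within each library, with points for libraries and bars for the mean ± SD of 5 (axes do not start at 0). The ratio of summed hydroxylases to *Hif1a* plus *Epas1* spanned 0.342 to 0.581 in *Atf6*+/+ OIR and 0.261 to 0.37 in *Atf6*-/- OIR on the linear scale, and 0.344 to 0.42 at P30.

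The second comparison asked what 1 dose of Ceapin-A7 does to the retina at P30. None of the 10 members reached the unadjusted threshold of 0.05, against 10.4% of 15408 genes (5.04% higher and 5.31% lower), and no gene of all those tested had an adjusted p under 0.05 (limma; 0.00%, 1595 genes at the unadjusted threshold). Adjusted p-values of the members ran from 0.481 to 0.968. None of the 10 had groups that did not overlap, which 1.47% of genes had.

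*Epas1* had the smallest p. It was at 18.13, 10.74, 15.91, 19.62 and 15.22 FPKM after saline and at 13.46, 12.33, 12.26, 12.63 and 13.69 FPKM after Ceapin-A7. The Ceapin-A7 libraries lay in a narrow band inside the saline range, below 4 of the 5 saline libraries and above replicate 2. The log2 fold change was -0.28 (SE 0.13, 95% interval -0.55 to 0, limma unadjusted p 0.0501, adjusted p 0.481). Leaving out each library in turn gave -0.40 to -0.20 (limma unadjusted p 0.000312 to 0.126). Of these 10 runs, only the one without saline replicate 2 (-0.40, p 0.000312) was at the threshold. In that run 2529 of all genes were at it, beside 1595 with every library. Saline replicates 4 and 5 had the lowest sums of rod markers (19550 and 18480 FPKM, against 25010 to 27810 in the other saline libraries and 25870 to 27720 after Ceapin-A7). They also had the lowest sums of 11 Müller glia markers (1308 and 1507 FPKM, against 1667 to 2345 and 2008 to 2291). Without these 2 libraries, a choice made after seeing the data, the *Epas1* log2 fold change was -0.20 (limma unadjusted p 0.182). It was -0.20 (unadjusted p 0.126) without replicate 4 alone and -0.29 (unadjusted p 0.0613) without replicate 5 alone. Replicate 4 had the highest *Epas1* value (19.62 FPKM) and the highest endothelial sum (129.8 FPKM) of the saline libraries. The part of any cell type in *Epas1* was not tested here either.

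*Hif1a* was at 156.12, 168.02, 159.10, 161.36 and 172.46 FPKM after saline and at 167.85, 161.35, 162.09, 156.10 and 161.62 FPKM after Ceapin-A7. The log2 fold change was -0.01 (95% interval -0.10 to 0.07). *Hif3a* was at 0.79 to 1.77 FPKM after saline and 0.90 to 1.81 FPKM after Ceapin-A7, with a wide interval of -0.21 to 0.74 around 0.26. *Arnt* was at 17.88 to 23.73 and 18.22 to 20.40 FPKM (log2 fold change -0.12, 95% interval -0.26 to 0.03). Its limma unadjusted p was 0.0117 without saline replicate 2 and above 0.05, up to 0.255, in the other runs that left out 1 library. *Arnt2* was at 5.15 to 6.69 and 5.50 to 6.09 FPKM, with a 95% interval from -0.13 to 0.16.

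For the hydroxylases, *Egln1* was at 35.74, 41.22, 30.15, 41.18 and 38.09 FPKM after saline and at 33.25, 31.83, 32.35, 37.51 and 34.57 FPKM after Ceapin-A7. Leaving aside saline replicate 3 and Ceapin-A7 replicate 4, the saline libraries lay above the Ceapin-A7 libraries. The log2 fold change was -0.13 (95% interval -0.30 to 0.04), and without saline replicate 3 it was -0.20 (limma unadjusted p 0.00649). In that run 2224 of all genes were at the threshold. In the other runs that left out 1 library, the unadjusted p of *Egln1* was above 0.05 and up to 0.302. *Egln3* was at 2.36, 1.23, 2.07, 1.71 and 2.08 FPKM after saline and at 1.86, 2.04, 2.07, 1.71 and 2.02 FPKM after Ceapin-A7, with a 95% interval from -0.26 to 0.39. *Egln2*, *Vhl* and *Hif1an* had 95% intervals from -0.06 to 0.11, -0.08 to 0.16 and -0.10 to 0.11, with means of 30.32 ± 1.43 and 30.88 ± 0.929, 16.07 ± 1.19 and 16.46 ± 0.38, and 24.41 ± 1.4 and 24.49 ± 0.869 FPKM (SD, n = 5).

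The summed hydroxylases stood at 0.387 of *Hif1a* plus *Epas1* after saline and 0.382 after Ceapin-A7 (geometric means, exact permutation p = 0.762). Ratios of *Hif1a* to *Epas1* were 8.22 to 15.6 and 11.8 to 13.2 (exact permutation p = 0.167, adjusted p = 0.406). The remaining pair, *Arnt* to *Arnt2* and *Egln3* to *Egln1*, had exact permutation p-values of 0.254 and 0.492.

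Whether a member responded differently to loss of *Atf6* and to the inhibitor was tested as the difference of the 2 log2 fold changes over all 20 libraries. No member had an adjusted p under 0.05, as 0.0320% of 15628 genes did. *Hif1a* (0.19, SE 0.07, limma unadjusted p 0.0111, adjusted p 0.452) and *Egln3* (-0.82, SE 0.37, limma unadjusted p 0.037, adjusted p 0.521) were at the unadjusted threshold, as 9.19% of genes were. *Egln2* (-0.18, unadjusted p 0.0583) and *Egln1* (-0.30, unadjusted p 0.0919) came next. Age, oxygen history and the length of ATF6 loss differ between the experiments and cannot be told apart here.

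HIF target genes had lower means in *Atf6*-/- OIR for 43 of 55, with a median log2 fold change of -0.20 beside 0.00 over all genes, and 13 lower and 3 higher were at the unadjusted threshold. Of all genes tested, 5.81% were lower and 6.94% higher at that threshold, which is also the background of the marker counts below. None had an adjusted p under 0.05. Across all genes, fold changes in this comparison went down with GC content (Spearman rho -0.48), and the values here are not corrected for it. The 3 with the smallest p were *Rora* (0.26, limma unadjusted p 0.00429), a nuclear receptor, *Pfkl* (-0.40, p 0.00677), the liver-type phosphofructokinase, and *Loxl2* (-0.68, p 0.0138), a collagen cross-linking enzyme. *Vegfa* was at -0.26 (p 0.0374). Over the runs that left out 1 library, the count of 13 ranged from 6 to 19. It was 6 without *Atf6*-/- replicate 4, 7 without *Atf6*+/+ replicate 1 and 8 without *Atf6*-/- replicate 2. Of all genes, 1092, 1301 and 1885 were at the threshold in these 3 runs in either direction, beside 2002 with every library. Of 18 endothelial markers 17, and of 10 mural markers all 10, also had lower means in *Atf6*-/- OIR (6 and 5 at the unadjusted threshold; sums of 166.7 to 255.9 against 147 to 225.2 and of 106.1 to 157.5 against 85.89 to 111 FPKM), and other marker lists differed too. Lower means were found for 11 of 12 microglia and macrophage markers (2 at the unadjusted threshold; sums of 106.4 to 167.5 against 93.23 to 126.9 FPKM), 6 of 7 astrocyte and gliosis markers (1; 119.4 to 265.4 against 83.63 to 177 FPKM), 6 of 6 erythroid markers (0; 379.9 to 2506 against 407.7 to 1362 FPKM) and 15 of 16 lens fibre genes (14; 10.49 to 1010 against 6.25 to 10.24 FPKM). Higher means were found for 12 of 12 rod markers (3; 21070 to 24050 against 23210 to 26020 FPKM), 8 of 11 Müller glia markers (2; 2239 to 2571 against 2501 to 2718 FPKM) and 10 of 12 retinal pigment epithelium markers (4; 158.7 to 291.4 against 236.5 to 461.3 FPKM). The part of these cell types in the values of the members and targets was not tested.

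A few targets, picked with their values known, were set beside *Egln3* library by library. *Atf6*+/+ replicate 1, the highest for *Egln3*, was also the highest of all 20 libraries for *Vegfa* (261.97 FPKM), *Loxl2* (23.33 FPKM) and *Adm* (32.58 FPKM). Among *Atf6*-/- libraries, replicate 3 was the highest for *Vegfa* (231.66 FPKM) and *Adm* (16.29 FPKM), and was nearly level with replicate 5 for *Loxl2* (10.83 and 10.89 FPKM). *Slc16a3*, a lactate transporter gene, and *Pfkl* were also highest in *Atf6*+/+ replicate 1 (94.25 and 196.75 FPKM), but among *Atf6*-/- libraries they were highest in replicate 5 (64.56 and 161.11 FPKM) rather than replicate 3 (57.25 and 139 FPKM). The sum over all 55 target genes, which weighs abundant genes most, did not follow the order of *Egln3*. It was highest in *Atf6*+/+ replicate 4 (24160 FPKM, replicate 1 at 21750 FPKM). Among *Atf6*-/- libraries it was highest in replicate 1 (19670 FPKM, replicate 3 at 18910 FPKM), the lowest for *Egln3* (4.07 FPKM). *Loxl2* was also 1 of the 3 genes most like *Egln3* in these data. At P30, *Adm* did not pass 0.76 FPKM in any saline library.

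**Figure D4:**
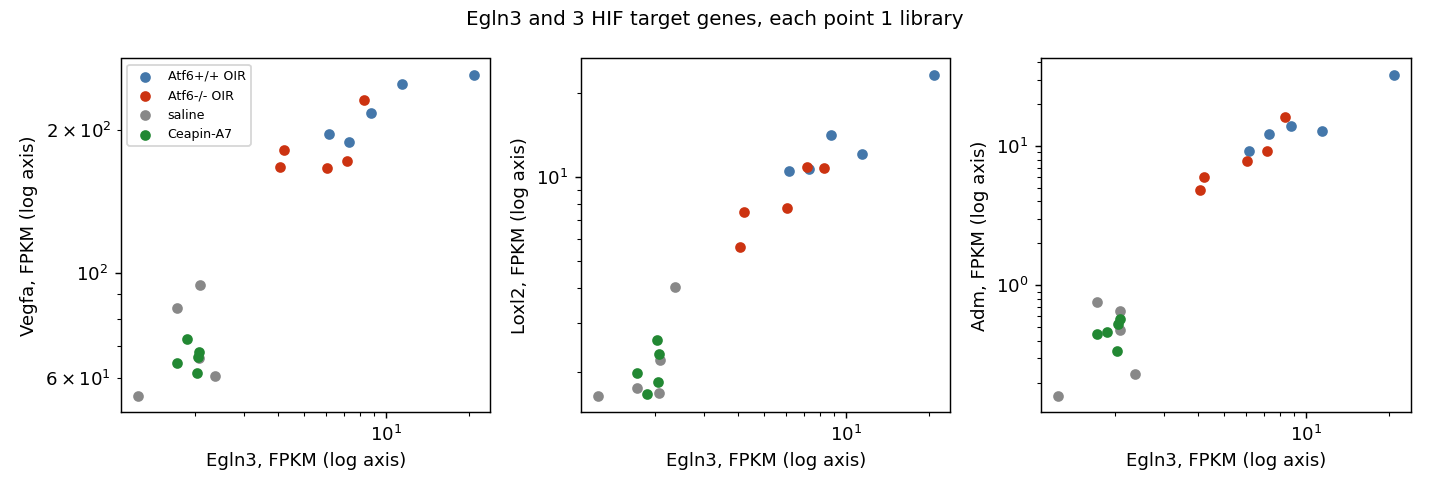
*Egln3* (x axis, FPKM) against *Vegfa*, *Loxl2* and *Adm* (y axes, FPKM; all axes logarithmic), with 1 point per library. The OIR libraries lie to the upper right of the P30 libraries in each panel, and *Atf6*+/+ replicate 1 is the rightmost and highest point at 20.85 FPKM of *Egln3*.

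After Ceapin-A7, 34 of 54 HIF target genes had lower means (median log2 fold change -0.04), with 3 lower and 1 higher at the unadjusted threshold, beside 5.31% lower and 5.04% higher of all genes. The 3 with the smallest p were *Pfkp* (-0.28, limma unadjusted p 0.00191), the platelet-type phosphofructokinase, *Pfkl* (-0.23, p 0.0125), and *Gpi1* (-0.11, p 0.0141), the glucose phosphate isomerase. The groups of *Pfkp* and *Gpi1* did not overlap on rescaled FPKM, which 1.47% of all genes had, and both were picked for their small p. *Vegfa* was at -0.08 (p 0.506).

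Partners and regulators of HIF, a list of 35 genes for coactivators, the VHL ligase, chaperones, deubiquitinases and other regulators, had median log2 fold changes of 0.015 in *Atf6*-/- OIR (16 lower and 19 higher; 1 lower and 3 higher at the unadjusted threshold) and -0.02 after Ceapin-A7 (24 lower and 11 higher; 3 and 0 at the threshold). Of all genes tested, 5.81% were lower and 6.94% higher at that threshold in OIR, and 5.31% and 5.04% after Ceapin-A7. In OIR, *Usp33* (0.26, limma unadjusted p 0.00652), a deubiquitinase, *Clock* (0.26, p 0.00692), the circadian relative of HIF subunits, and *Nfkb1* (-0.18, p 0.0324), an NF-κB subunit, had the smallest p. After Ceapin-A7 they were *Sirt1* (-0.15, p 0.00401), a deacetylase, *Rela* (-0.36, p 0.0108), an NF-κB subunit, and *Ahr* (-0.38, p 0.0259), which also pairs with ARNT. None passed adjustment in either comparison, and the sign of the OIR median turned with the scaling (-0.002 with FPKM as deposited).

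**Figure D5:**
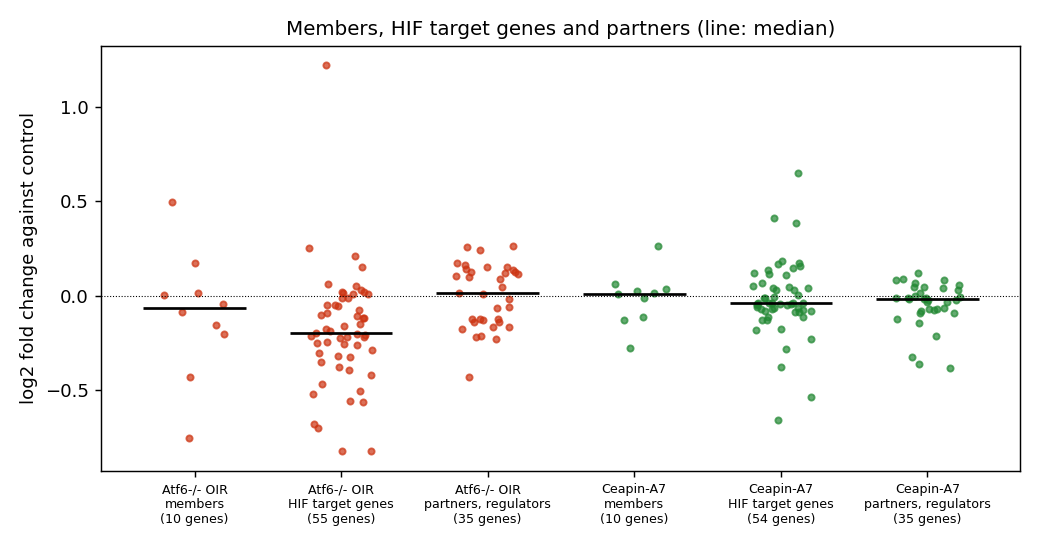
log2 fold change of each member, HIF target gene, and HIF partner or regulator in both comparisons (1 point per gene, line at the median). The target genes in *Atf6*-/- OIR have a median of -0.20, and the single point above 1 is *Car12*, a carbonic anhydrase at 0.452 ± 0.259 and 1.206 ± 0.671 FPKM.

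The genes most like a member were sought over the 20 libraries, after removing each group's mean, among 12566 genes that averaged 1 FPKM or more in both experiments. *Hif1a* was closest to *Gk* (Pearson r 0.89), *Ccar1* (0.86) and *Fmr1* (0.86), whose transcripts, at 39.19% to 41.77% GC, are AT-rich like its own. *Epas1* was closest to *Numa1* (0.96), *Sec24c* (0.94) and *Atg2a* (0.94), at 52.14% to 59.96% GC and widely expressed. *Egln3* was closest to *Parm1* (0.86), *Stat6* (0.80) and *Loxl2* (0.78), of which *Loxl2* is on the HIF target list. With *Loxl2* it was at 0.91 within the 10 OIR libraries and 0.62 within the 10 at P30. These values describe genes measured in the same libraries, and no test was made. The part of depth and base composition in them was not tested.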

How the data were processed

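Total RNA of 20 whole-retina samples was sequenced by the authors as stranded, paired-end mRNA libraries. Per the labels and the study's methods, HISAT2 (v2.0.4) placed the reads on GRCm39 and RSEM (v1.2.18) estimated expression, and the authors deposited FPKM per gene to 2 decimals. The authors tested counts; the files here hold FPKM, so no count model was fitted. Depth is unknown: the steps between low FPKM gave modes of relative depth that moved with the range of values read (0.93 to 1.19), so no counting interval is given.

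Each library's FPKM was divided by its median-of-ratios factor (0.946 to 1.04 in OIR, 0.98 to 1.02 at P30). For genes with a mean FPKM above 0.1, log2(value + 0.1) was compared with limma (version 3.58.1, eBayes with trend, two-sided) in R (version 4.3.3), in a fit per experiment and, for the difference between them, over all 20 libraries. Fold changes on this scale understate those of low genes. p-values were adjusted by Benjamini-Hochberg over every gene in the fit. Ratios within libraries were tested by exact permutation over all 252 arrangements. On simulated data at the real means and spreads, 94% of 200 genes changed by 1 on the log2 scale were called among 15704 genes for *Atf6*-/- against *Atf6*+/+ and 95% among 15408 for Ceapin-A7 against saline, and 61% and 76.5% of those changed by 0.5. The changed genes had a mean FPKM above 1, and the noise was normal and independent between genes. Real libraries deviated in many genes at once (1092 to 4011 OIR genes at the unadjusted threshold with 1 library left out), so these shares may not hold for them.

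The members, the lists of HIF target genes and of partners and regulators, and the markers of endothelial cells, mural cells, microglia and macrophages, astrocytes and gliosis, erythroid cells, rods, Müller glia, retinal pigment epithelium, lens fibre and retina were chosen with earlier results of these data known. Named genes are all members, from each pathway list the 3 with the smallest p per comparison and *Vegfa*, and the 3 genes most like *Hif1a*, *Epas1* and *Egln3*. *Adm*, *Slc16a3* and *Car12* were named after their values were seen. GC content is that of the longest GENCODE vM21 transcript with the gene's NCBI number and was found for 97.5% and 97.7% of genes tested; the GC correction removes each library's lowess trend (span 0.3). Promoters are RefSeq entries (GRCm38.p6). Alternatives were pseudocounts of 1 and 0.01, no filter, a mean FPKM above 1, FPKM as deposited, TPM, quantile normalization, no trend, array weights, the GC correction, the replicate block, a single fit of both experiments (20 libraries), and each library left out. Leaving out *Atf6*+/+ replicates 2 and 5, *Atf6*+/+ replicate 1 with *Atf6*-/- replicate 5, or saline replicates 4 and 5, and correcting the ratios for GC content, were added after seeing the data.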

Additional observations from a re-analysis of the deposited data

Results flagged for a closer look

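In a set of 56 groups of 5 values tested for a library far from the others (members and ratios in each group), 2 stood out, and chance gives about 1 in 20. *Epas1* in *Atf6*-/- OIR replicate 5 was at 41.96 FPKM, with the other 4 libraries at 25.78 to 28.15 FPKM. The log2 ratio of *Hif1a* to *Epas1* in the same library was 1.83, which follows from the same value, with the other 4 at linear ratios of 6.21 to 7.13 against its 3.55. Among the *Atf6*-/- libraries, that library also had the highest sums of endothelial (225.2 FPKM), mural (111 FPKM) and retina markers (18640 FPKM). It had the lowest sums of microglia and macrophage (93.23 FPKM) and retinal pigment epithelium markers (236.5 FPKM). The part of these cell types in the *Epas1* value was not tested.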

How the results depend on the processing

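Of 1080 alternative values, 963 kept the direction and side of the threshold of the value given in the text, and *Hif1a*, *Hif3a*, *Egln1* and *Egln3* in OIR kept their direction under every alternative run. For members and ratios the p compared was the adjusted one, and none was under 0.05 in the text. Moves of an unadjusted p, such as that of *Hif1a* in OIR with the GC correction (limma, 0.198), are therefore not counted. In OIR, the genes with an adjusted p under 0.05 were 5 in the text, 9 without a filter, 8 with the GC correction, 11 in a fit of all 20 libraries and 2769 with array weights, which also gave 5749 genes at the unadjusted threshold and 4 members after adjustment. After Ceapin-A7, 1 gene was called in the fit of all 20 libraries. In the same comparison 1 member of 10, *Epas1*, was at the unadjusted threshold with a mean FPKM above 1, TPM, array weights, the GC correction or the replicate block. Of all genes, 1417, 1699, 1493, 1693 and 1606 were at it in these settings, beside 1595 (10.4%) in the text, where *Epas1* had a limma p of 0.0501. Values near 0 changed sign: in OIR the median of HIF partners and regulators was -0.002 (FPKM as deposited), -0.009 (TPM), -0.017 (array weights) and -0.001 (GC correction), *Vhl* was -0.003 (as deposited), -0.010 (TPM) and -0.042 (without *Atf6*+/+ replicates 2 and 5), *Hif1an* was -0.016 (as deposited), -0.022 (TPM), 0.000 (array weights) and -0.002 (without *Atf6*+/+ replicate 1 and *Atf6*-/- replicate 5), *Egln2* was 0.007 (GC correction) and the log2 difference in the ratio of *Arnt* to *Arnt2* was -0.026 (GC correction). After Ceapin-A7, TPM gave -0.023 for *Arnt2*, -0.012 for *Egln2*, -0.001 for *Vhl* and -0.032 for *Hif1an*, array weights gave -0.014 for *Hif1an*, and leaving out saline replicates 4 and 5 gave -0.028 for *Hif1an*, 0.006 for the median of HIF target genes and 769 genes at the unadjusted threshold, and the GC correction gave 0.013 for the ratio of hydroxylases to *Hif1a* plus *Epas1*. The cause was not tested.

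Leaving out each library in turn gave, in OIR, 1092 to 4011 genes at the unadjusted threshold, 5 to 9 after adjustment, 3 to 6 members at the unadjusted threshold, and ranges of -0.069 to 0.007 for *Arnt*, -0.017 to 0.016 for *Hif1an*, -0.03 to 0.054 for *Vhl*, -0.011 to 0.057 for the median of partners and regulators and -0.018 to 0.124 for the ratio of *Arnt* to *Arnt2*. After Ceapin-A7, the ranges were 956 to 2529 genes and 0 to 2 members at the unadjusted threshold, -0.029 to 0.065 for *Arnt2*, -0.067 to 0.151 for *Egln3*, -0.031 to 0.004 for *Hif1a*, -0.035 to 0.023 for *Hif1an* and -0.06 to 0.001 for the ratio of hydroxylases to *Hif1a* plus *Epas1*.

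The labels give each group replicates 1 to 5 and state no pairing. Deviations of libraries of the same number had correlations of -0.26 to 0.21 in OIR and -0.22 to 0.31 at P30. With 5 pairs per experiment these cannot exclude a pairing, and the libraries were fitted as unpaired. With the replicate block, 3 members in OIR and 1 at P30 were at the unadjusted threshold, with 1969 and 1606 genes. The depth is unknown.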
